A study of Mus musculus with 111 samples.

Results

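Single mouse 2-cell embryos that had received control siRNAs were divided by how much Nr5a2 RNA each one held, and the embryos with the most were compared with those with the least. Of 111 embryos sequenced, 56 were controls, and 36 of these entered the comparison: 18 high-Nr5a2 and 18 low-Nr5a2 embryos, with 20 middle embryos between them. Within each experiment the control embryos were ranked by Nr5a2 CPM, the summed estimated counts of 6 Nr5a2 transcripts scaled to the library total, and equal numbers were taken from the top and the bottom. This gave 8 against 8 of 24 embryos in experiment 1, 2 against 2 of 7 in experiment 2 and 8 against 8 of 25 in experiment 3. The groups were therefore chosen by a measured level and not by a treatment, so Nr5a2 itself is described without a test and was left out of the genes tested.

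The study gave oocytes siRNAs that target Nr5a2, or control siRNAs, and sequenced the polyadenylated RNA of each resulting 2-cell embryo. All embryos compared here were of strain B6129F1. Their oocytes were injected at the germinal vesicle stage with a set of 2 control siRNAs at 20 µM each and with 150 ng/µl of RNA for the fluorescent marker H2B-EGFP, held at that stage for 5 hours and then matured over 12 hours, before in vitro fertilization and culture in KSOM. The knockdown embryos, used below for the same division, had a set of 2 siRNAs against Nr5a2 and the marker H2B-rsEGFP instead. Parents of the embryos are not named in the labels, so a p-value here reflects variation among single embryos and not among litters.

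Nr5a2 (also called Lrh-1) is an orphan nuclear receptor, known to act on DNA without a partner through an extended half-site, AAGGTCA or AAGGCCA. Outside the embryo it is known for control of bile acid, cholesterol and steroid genes, and in embryos and stem cells for its part in early transcription. The 2-cell stage of the mouse is the time when RNA inherited from the oocyte is being cleared and the main wave of transcription from the new genome begins. In whole embryos, a lower level of a transcript and fewer nuclei producing it cannot be told apart.

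Nr5a2 varied widely among control embryos. In experiment 1 it ran from 65.5 to 222 CPM, with a median of 77.3 in the low-Nr5a2 embryos and 147 in the high-Nr5a2 embryos. In experiment 2 the medians were 58.4 and 172 CPM, over a range of 35.8 to 186. In experiment 3 they were 54.9 and 135 CPM, over a range of 37.8 to 200.5. The ratio of the medians was thus 1.90, 2.95 and 2.45 in experiments 1 to 3. Embryos just inside and just outside a group were close. In experiment 1 the low group ended at 105.2 CPM and the middle began at 107.6, and the middle ended at 130.8 where the high group began at 131.4. In experiment 2 these pairs were 81.1 and 83.0, and 155.9 and 159.1. In experiment 3 they were 61.6 and 65.7, and 104.0 and 113.3.

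**Figure D1:**
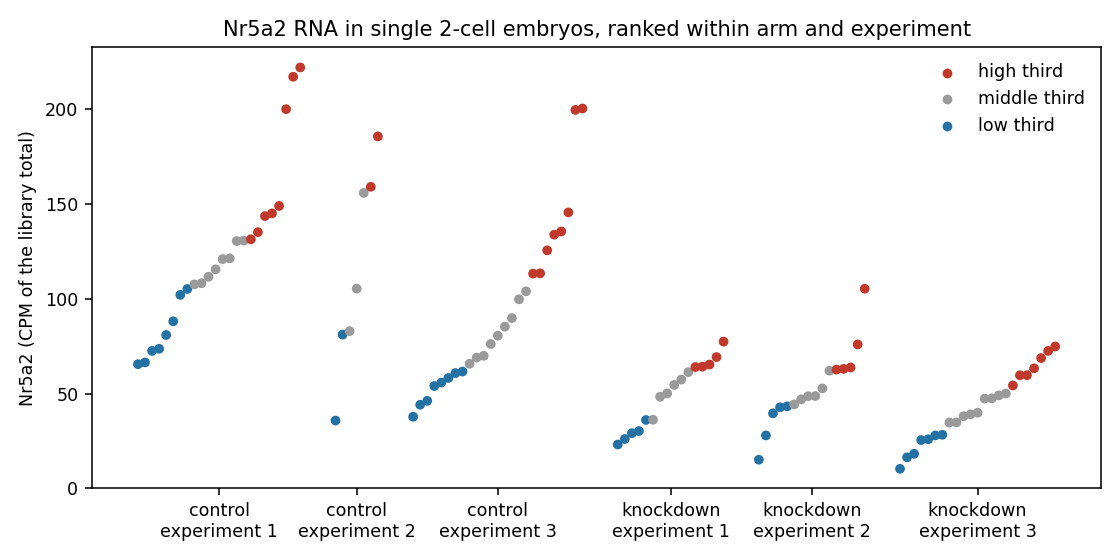
Nr5a2 RNA in every embryo (CPM of the library total), ranked within arm and experiment and coloured by group. The groups are ranges of a graded level. The control embryos run from 35.8 to 222 CPM and the knockdown embryos from 10.3 to 105 CPM.

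The transcripts that made up the sum did not all differ alike. ENSMUST00000192929.5, with the highest median, was at 70.9 CPM in high-Nr5a2 embryos (49.9 to 104) and 26.6 CPM in low-Nr5a2 embryos (16.4 to 49.0), and ENSMUST00000192357.5 had medians of 45.0 and 13.4 CPM. ENSMUST00000027649.13 was closer in the groups, with medians of 21.9 and 17.7 CPM. A separate row under the Nr5a2 gene identifier, whose meaning the sources used here do not give, had medians of 45.5 and 37.6 CPM and was not part of the sum.

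Library totals overlapped between the groups, from 3.48 M to 15.4 M estimated counts in high-Nr5a2 embryos (median 4.96 M) and from 2.18 M to 14.8 M in low-Nr5a2 embryos (median 5.37 M). The control libraries, middle embryos included, held transcripts of the oocyte, summing over 60 listed genes to between 15994 and 79277 CPM. They also held transcripts of the 2-cell stage, summing over 35 listed genes to between 3191 and 14756 CPM. Of markers of other cells, 22 cumulus and granulosa genes summed to 14.1 to 63.1 CPM in high-Nr5a2 and 13.5 to 80.4 CPM in low-Nr5a2 embryos, and to at most 106.9 CPM in a middle embryo. Kitl and Tnfaip6 were the highest of them, at up to 36.8 and 36.4 CPM in a control embryo, and Fshr, the follicle-stimulating hormone receptor of granulosa cells, reached at most 3.59 CPM. A list of 14 sperm genes summed to 156 to 286 CPM in high-Nr5a2 and 123 to 348 CPM in low-Nr5a2 embryos. Of these, Odf2, which also encodes a centrosome protein of other cells, reached 337 CPM and Ldhc 45.1 CPM, while Prm1 and Prm2, the protamines of sperm, reached at most 2.18 and 4.99 CPM. RNA of the injected marker was at most 2.18 CPM in the 24 control embryos of experiment 1, although their labels give the same injection, and ran from 2.91 to 5351 CPM in experiments 2 and 3.

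Among all other genes, 23 of 13308 tested differed between high-Nr5a2 and low-Nr5a2 control embryos at an adjusted p under 0.05 (0.173%; edgeR's quasi-likelihood test with Benjamini-Hochberg adjustment and experiment as a factor). Of these, 21 were higher in the high-Nr5a2 embryos (0.158% of genes tested) and 2 were lower (0.015%). They include transcription factors and kinases (Nr2c2, Spic, Hipk1, Dyrk1a), RNA-handling and import proteins (Pabpn1, Slc7a6os) and enzymes of lipid metabolism (Fdft1, Smpd4). Also among them are a GTPase of the Golgi (Rab2b), a protease that matures secreted proteins (Pcsk7) and an ion exchanger of endosomes (Clcn3). At an unadjusted p under 0.05, 825 genes were higher (6.2%) and 680 lower (5.11%), 11.3% together, and the median log2 fold change of all genes was -0.05, with 43.3% of genes above 0. Gene levels below are CPM scaled by edgeR's TMM factors, and every log2 fold change is high-Nr5a2 over low-Nr5a2.

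The number of calls rests on all 3 experiments and on a few embryos. It was 4 without experiment 1, 4 without experiment 2 and 0 without experiment 3, where 790 genes had an unadjusted p under 0.05. It was 9 without control embryo 2 of experiment 2, which had the lowest Nr5a2 and the lowest total, 13 without embryo 7 of the same experiment, and 5 without control embryos 2 and 6 of experiment 3. Those 2 low-Nr5a2 embryos held the most Btg4, an oocyte transcript, of all control embryos (2453 and 3004 CPM). Each experiment fitted alone gave 0 calls (0%), with 525 genes (3.95%), 403 (3.1%) and 882 (6.75%) at an unadjusted p under 0.05 in experiments 1 to 3. A test of the difference between experiments 3 and 1 called 0 of 13290 genes with edgeR, with 2.81% at an unadjusted p under 0.05.

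Nr2c2 (chr6:92091390-92174294 in GRCm38) encodes testicular receptor 4, another orphan nuclear receptor. Its level ran from 317 to 758 CPM in high-Nr5a2 embryos (median 475) and from 124 to 496 CPM in low-Nr5a2 embryos (median 285), with a median of 453 in the middle embryos. All 18 high-Nr5a2 embryos lay above the median low-Nr5a2 embryo of their experiment, although the ranges overlapped. On the log2 scale the difference was 0.90 (SE 0.17, edgeR adjusted p = 0.0113), and it was 0.81, 1.26 and 0.86 in experiments 1 to 3 fitted alone. Of the 26 nuclear receptor genes tested besides Nr5a2, Nr2c2 was the 1 called.

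Spic (chr10:88674772-88685015) encodes an Ets-family transcription factor. It ran from 552 to 1509 CPM in high-Nr5a2 embryos (median 820) and from 169 to 924 CPM in low-Nr5a2 embryos (median 454). The middle embryos had a median of 822 CPM, close to that of the high ones. High-Nr5a2 embryos were higher by 0.92 on the log2 scale (SE 0.20, edgeR adjusted p = 0.0338), and 17 of 18 were above the median low-Nr5a2 embryo of their experiment.

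Hipk1 (chr3:103739815-103791563) encodes a nuclear kinase that phosphorylates homeodomain transcription factors. It had medians of 721 CPM in high-Nr5a2 embryos (395 to 1205) and 397 CPM in low-Nr5a2 embryos (69.7 to 661), a log2 difference of 1.00 (SE 0.22, edgeR adjusted p = 0.0385). All 18 high-Nr5a2 embryos were above the median low-Nr5a2 embryo of their experiment. Its log2 difference was 0.86 in experiment 1, 2.09 in experiment 2 and 0.83 in experiment 3. Dyrk1a, which encodes another kinase, had medians of 182 and 124 CPM and a log2 difference of 0.53 (SE 0.12, adjusted p = 0.0492).

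Pabpn1 (chr14:54892500-54898169) encodes the nuclear poly(A)-binding protein, which sets the length of new poly(A) tails. It ran from 457 to 1358 CPM in high-Nr5a2 embryos (median 802) and from 181 to 703 CPM in low-Nr5a2 embryos (median 460). In experiment 3 all 8 high-Nr5a2 embryos lay above all 8 low-Nr5a2 embryos. The log2 difference was 0.88 (SE 0.17, edgeR adjusted p = 0.0194), and 0.50, 2.13 and 0.91 in experiments 1 to 3. Slc7a6os, the counterpart of a yeast factor for nuclear import of RNA polymerase II, had medians of 138 and 78.3 CPM (log2 difference 0.77, SE 0.16, adjusted p = 0.0263).

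**Figure D2:**
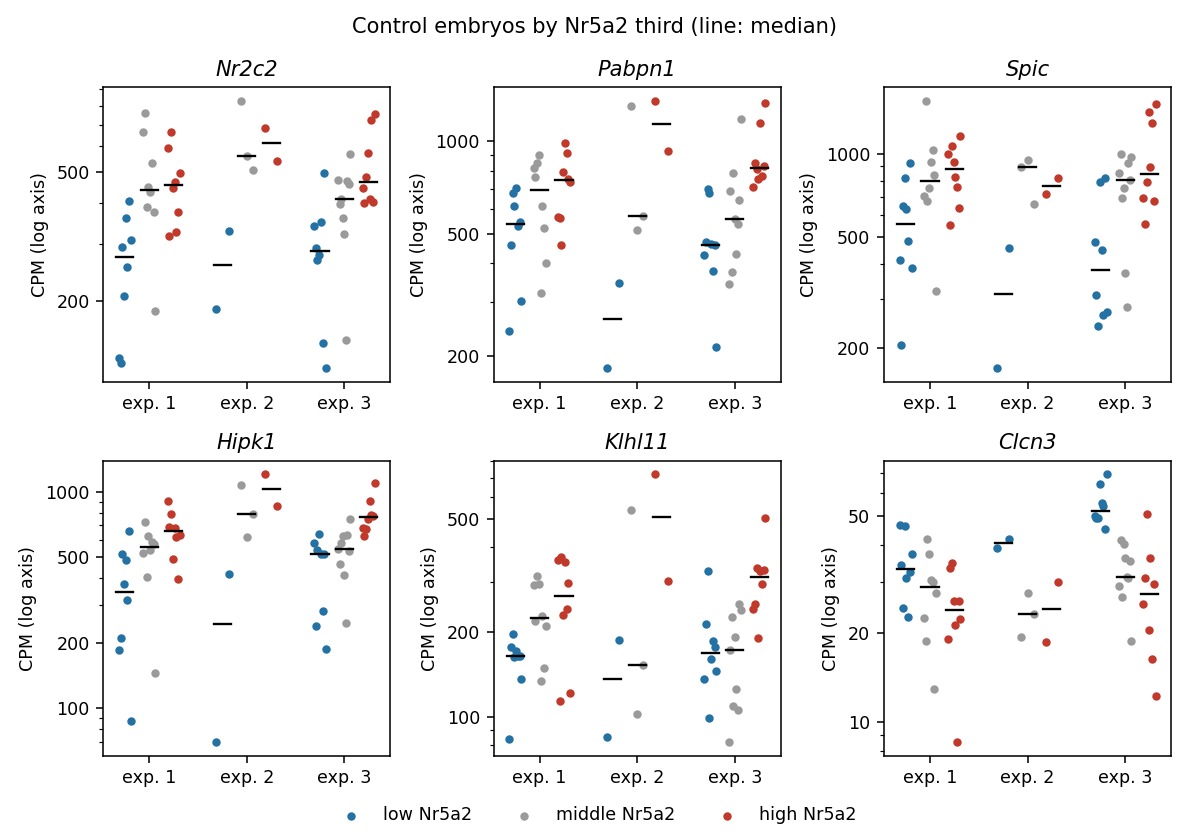
Levels of 6 genes in each control embryo (TMM-scaled CPM, log axis) by experiment and Nr5a2 group, with a line at each group's median. High-Nr5a2 embryos lie mostly above low-Nr5a2 embryos for Nr2c2, Pabpn1, Spic, Hipk1 and Klhl11 and below them for Clcn3, and the pooled ranges overlap for each gene.

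Fdft1 (chr14:63145150-63179578) encodes squalene synthase, an enzyme of sterol synthesis. It had a median of 475 CPM in high-Nr5a2 embryos (340.5 to 611) and 349 CPM in low-Nr5a2 embryos (247 to 459). All 18 high-Nr5a2 embryos were above the median low-Nr5a2 embryo of their experiment, and the log2 difference was 0.49 (SE 0.11, edgeR adjusted p = 0.0349). Of 50 genes of lipid and steroid metabolism tested, Fdft1 was the 1 called, and 21 of the 50 were above 0, with a median log2 fold change of -0.04. Smpd4, a neutral sphingomyelinase, had medians of 125 and 77.9 CPM and a log2 difference of 0.74 (SE 0.14, adjusted p = 0.0157).

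The remaining called genes with a standard gene name differed by similar amounts. Rab2b, a small GTPase of the Golgi, had medians of 168.5 and 88.1 CPM in high-Nr5a2 and low-Nr5a2 embryos, and Pcsk7, a protease that matures secreted proteins, 32.2 and 21.5 CPM (log2 fold changes 0.93 and 0.90, edgeR adjusted p = 0.0341 and 0.0406). Klhl11, an adaptor of cullin ubiquitin ligases, had medians of 299 and 165 CPM (0.89, adjusted p = 0.0259). Rimklb, a ligase that forms N-acetylaspartylglutamate, had medians of 467 and 270 CPM (0.79, adjusted p = 0.0263), and Ccdc63, a coiled-coil protein of the sperm flagellum, 40.6 and 21.6 CPM (0.90, adjusted p = 0.0227). Mfsd14a and Slc25a33, both membrane carriers, were outside the rule for named genes and were named after their values were seen, as was Dyrk1a. Mfsd14a ran from 449 to 770 CPM in high-Nr5a2 embryos and from 250 to 555 CPM in low-Nr5a2 embryos, and the log2 fold changes of these carriers were 0.56 and 0.73 (adjusted p = 0.0263 for both).

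Tnfaip8l2 (chr3:95139521-95142360) encodes TIPE2, a phospholipid-binding protein known from immune cells. It ran from 55.2 to 222 CPM in high-Nr5a2 embryos (median 127) and from 26.5 to 111 CPM in low-Nr5a2 embryos (median 70.9). High-Nr5a2 embryos were higher by 0.94 on the log2 scale (SE 0.17, edgeR adjusted p = 0.0113). Of the 21 higher genes, 14 had promoters in the RefSeq table (GRCm38.p6; 17 promoters of 300 bases, from 250 before to 50 after the start), and Tnfaip8l2 was the 1 gene whose promoter held AAGGTCA or AAGGCCA on either strand. The 67 bases around the match, at chr3:95142468-95142534 on the minus strand and 144 bases before the start, are shown because they hold these letters. Capitals mark AAGGTCA as read on the opposite strand, and AAGGCCA also occurs in the same promoter outside the stretch shown.
Tnfaip8l2: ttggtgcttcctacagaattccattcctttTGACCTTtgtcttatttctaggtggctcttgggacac
A share of 1 in 17 promoters is 5.88%, while these letters were in 8.47% of 12665 promoters of the genes tested and in 10.6% of all 32851 promoters. With TC directly before them, the longer form of the half-site, the letters were in 0 of the 17 promoters and in 0.711% of those of the genes tested. A match is a description of the letters and not a binding site.

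Of the called genes, 5 were loci annotated as pseudogenes, which the rule for named genes left out and which were named after their values were seen. Gm18856 had medians of 178 CPM in high-Nr5a2 and 83.5 CPM in low-Nr5a2 embryos (log2 fold change 1.24, SE 0.19, edgeR adjusted p = 0.00103). Gm5852 (chr3:93727026-93728046), an unprocessed pseudogene close to Tdpoz1 (chr3:93669333-93676310), had medians of 142 and 77.8 CPM (0.96, SE 0.16, adjusted p = 0.00196). AU015228 had medians of 442 and 283 CPM, and Gm5828 and Gm7224 were near the floor, with medians of 4.38 and 0.91 CPM and of 4.75 and 1.62 CPM. Reads of such loci can be divided among near-identical copies, so their levels are uncertain.

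Both called genes that were lower in high-Nr5a2 embryos were of modest level. Clcn3 (chr8:60910389-60983300), a chloride-proton exchanger of endosomes, ran from 8.53 to 50.9 CPM in high-Nr5a2 embryos (median 25.4) and from 22.8 to 69.5 CPM in low-Nr5a2 embryos (median 45.9). The middle embryos lay between, with a median of 29.5 CPM, and the log2 fold change was -0.74 (SE 0.17, edgeR adjusted p = 0.0431). S1pr5, a receptor for sphingosine 1-phosphate, had medians of 5.16 and 12.9 CPM, and 0 of the 18 high-Nr5a2 embryos were above the median low-Nr5a2 embryo of their experiment (log2 fold change -1.39, SE 0.26, adjusted p = 0.0113). S1pr5 was outside the rule for named genes because of its low level. Of 3 promoters of these genes, 1 held such letters, that of Clcn3 with AAGGCCA on the opposite strand, 138 bases before the start at chr8:60983419-60983485 on the minus strand, also without TC before the letters.
Clcn3: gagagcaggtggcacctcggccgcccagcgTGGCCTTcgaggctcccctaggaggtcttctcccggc
The next lower genes in the order of the rule did not pass the test. Yipf6 and Gbf1, both of the Golgi, had log2 fold changes of -0.77 and -0.56 (adjusted p = 0.0716 and 0.0783). The histone chaperone Anp32b was at -0.54 and the H3K9 methyltransferase Suv39h2 at -0.59 (adjusted p = 0.135 and 0.148). Parp12, Tbl2 and Tmem123 were at -0.73, -0.60 and -0.60 (adjusted p = 0.108, 0.152 and 0.155).

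**Figure D3:**
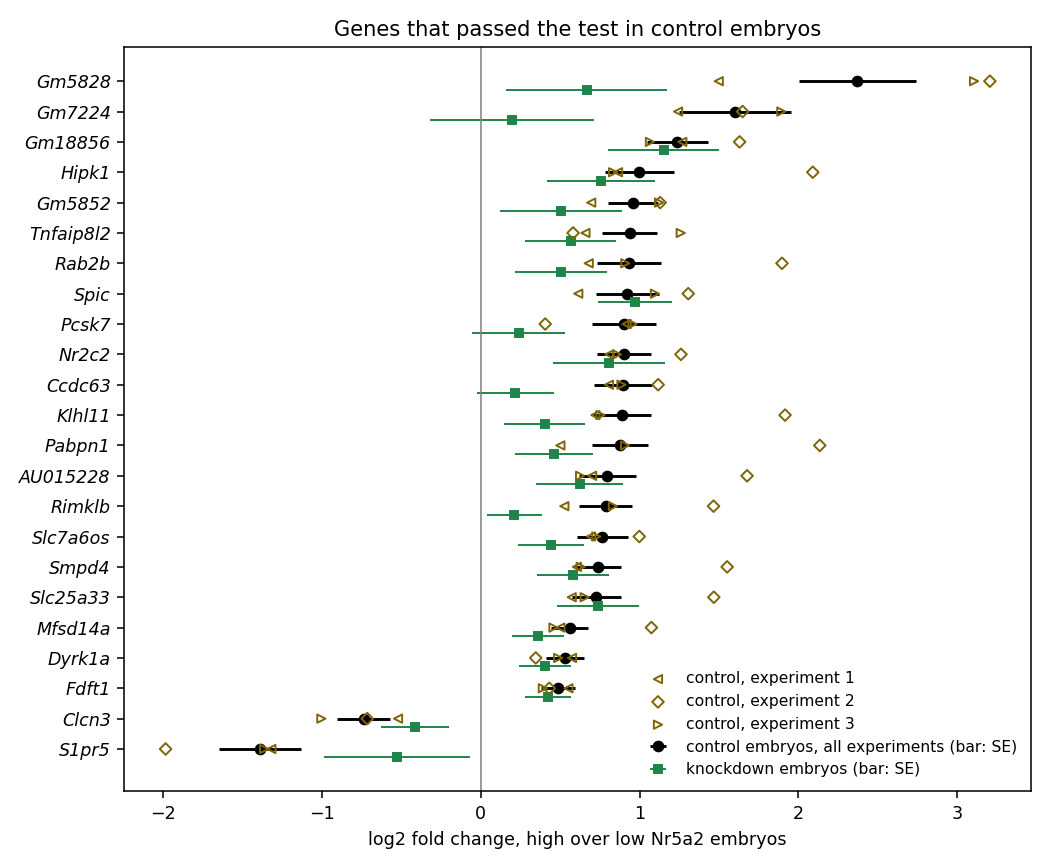
Log2 fold change of high-Nr5a2 over low-Nr5a2 embryos for the 23 called genes: control embryos of all experiments (black, bar: SE), each experiment alone (open symbols) and knockdown embryos divided by the same rule (green, bar: SE). The 21 higher genes lie to the right of 0 in every series shown, and Clcn3 and S1pr5 to the left.

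Some measures of the libraries differed in mean between the groups, and with adjustment none of the 7 passed the test. After each library was thinned to 1955810 counts, high-Nr5a2 embryos had 12460 ± 281 genes with at least 5 counts and low-Nr5a2 embryos 12842 ± 604 (mean ± SD, n = 18 each; permutation p = 0.0204, 0.0714 adjusted over 7 measures, two-sided). The mitochondrial share of counts was 6.55% ± 1.39 and 7.55% ± 1.98 (permutation p = 0.0571, adjusted 0.133). A row for B1 repeats stood at 35.3 ± 10.5 and 46.8 ± 16.8 CPM (permutation p = 0.0136, adjusted 0.0714), with differences of -22.9, -8.22 and -0.89 CPM in experiments 1 to 3. With the mitochondrial share as a term in the fit 10 genes were called, and with the number of genes detected as a term 10 were called, in place of 23. The part of these measures in the single genes was not tested further.

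The division uses 36 embryos and ignores the level within a group. A fit with log2 Nr5a2 CPM as a continuous term over all 56 control embryos called 1005 of 14327 genes (7.01%), of which 487 were higher (3.4%) and 518 lower (3.62%) in embryos with more Nr5a2. It called 22 of the 23 genes above. It uses the same Nr5a2 values and includes the 36 divided embryos, so this overlap was likely beforehand and is not separate support. Values from this fit are log2 fold changes per doubling of Nr5a2, and the median over all genes was -0.06. Without control embryos 2 and 6 of experiment 3 it called 251 genes, 192 higher and 59 lower, and without control embryo 2 of experiment 2 it called 364, 239 higher and 125 lower. This fit was used for the gene groups that follow. The groups were drawn up with earlier results of these embryos known, so their counts are descriptions to be read beside 3.4% and 3.62%.

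Transcripts of the 2-cell stage, which mark the first wave of embryonic transcription, gave 9 higher calls and 0 lower ones among 33 tested of 44 listed, with a median of 0.24 per doubling. An average log2 level, after adding 1 CPM, was taken over the members tested between the divided groups. For this list it was 6.65 in high-Nr5a2, 6.15 in middle and 6.21 in low-Nr5a2 embryos. Usp17lb (chr7:104840257-104842603), a deubiquitinase gene, ran from 249 to 1281 CPM in high-Nr5a2 embryos (median 708) and from 79.7 to 922 CPM in low-Nr5a2 embryos (median 341). It changed by 0.86 per doubling (SE 0.19, edgeR adjusted p = 0.00323). Ubtfl1, a relative of an RNA polymerase I factor, changed by 0.52 (adjusted p = 0.0024), and Tdpoz5, Tdpoz1 and Tdpoz2, which encode BTB-domain proteins, by 0.57, 0.58 and 0.60 (adjusted p = 0.00651, 0.0172 and 0.0259). Tdpoz and Usp17l genes have near-identical copies, so the division of reads among them is uncertain. Between the divided groups no member passed edgeR's test, and 10 of 32 had an unadjusted p under 0.05, each of them higher, where 6.2% of all genes did. Without control embryos 2 and 6 of experiment 3, 3 of 33 were called higher per doubling, without control embryo 2 of experiment 2, 4, and without experiment 3, 0.

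Regulators of genome activation gave 10 higher calls and 0 lower ones among 49, with a median of 0.23 per doubling. Dppa2 and Dppa4, which encode partner DNA-binding proteins that activate 2-cell genes and are also listed with the 2-cell transcripts, changed by 0.51 and 0.47 (edgeR adjusted p = 0.0405 and 0.0355). Dppa2 had medians of 496 CPM in high-Nr5a2 embryos (268 to 1068) and 247 CPM in low-Nr5a2 embryos (106 to 722). Cdk9 and Supt5, which act on the pause and elongation of RNA polymerase II, changed by 0.39 and 0.52 (adjusted p = 0.0236 and 0.00491). Hdac1, a histone deacetylase, had medians of 337 and 245 CPM and changed by 0.34 (SE 0.08, adjusted p = 0.00456). The histone demethylases Kdm5a, Kdm5b and Kdm4a changed by 0.37, 0.47 and 0.56 (adjusted p = 0.0219, 0.0083 and 0.0111). In the Obox homeobox family 2 of 7 were higher (Obox3 by 0.57 and Obox6 by 0.38, adjusted p = 0.00622 and 0.0429) and 1 was lower (Obox1 at -0.53, adjusted p = 0.0284). Without control embryos 2 and 6 of experiment 3, 2 of the 49 regulators were called higher, and without control embryo 2 of experiment 2, 4. Under either omission 1 of the 7 Obox genes was called higher, Obox3, and 0 were called lower.

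Among genes of ribosome production the calls were all higher. Of 89 ribosome biogenesis factors, 14 were called higher and 0 lower per doubling (median 0.29), and 81 of 89 were above 0 between the divided groups, where 43.3% of all genes were. Polr1b (chr2:129100995-129126594) and Polr1a, the large subunits of RNA polymerase I, changed by 0.66 (SE 0.12, edgeR adjusted p = 0.000512) and 0.63 (SE 0.15, adjusted p = 0.00553). Polr1b had medians of 123 CPM in high-Nr5a2 and 73.0 CPM in low-Nr5a2 embryos, from ranges of 49.2 to 270 and 32.0 to 138. Rrn3, the initiation factor of RNA polymerase I, and the nucleolar proteins Nolc1 and Nop56 changed by 0.37, 0.39 and 0.44 (adjusted p = 0.00249, 0.00507 and 0.00666). Of 83 cytosolic ribosomal protein genes, 7 were called higher and 0 lower (median 0.28). Average log2 levels of the biogenesis factors were 6.76, 6.76 and 6.34 in high-Nr5a2, middle and low-Nr5a2 embryos. Those of the ribosomal protein genes were 6.43, 6.51 and 6.10, so the middle embryos lay near or above the high ones. Ribosomal protein genes have many processed copies in the genome, so their single values are uncertain. Without control embryos 2 and 6 of experiment 3, 5 biogenesis factors and 0 ribosomal protein genes were called higher, and without control embryo 2 of experiment 2, 8 and 0.

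Genes of cell division also gave higher calls. Of 50 genes of G2 and mitosis, 17 were called higher per doubling and 0 lower (median 0.21). Their average log2 level was 7.21 in high-Nr5a2, 7.13 in middle and 6.93 in low-Nr5a2 embryos. Ccnf (chr17:24222198-24251484), the F-box protein cyclin F, had medians of 276 CPM in high-Nr5a2 embryos (138 to 440) and 173 CPM in low-Nr5a2 embryos (107.5 to 280). It changed by 0.46 (SE 0.09, edgeR adjusted p = 0.000749), and 16 of 18 high-Nr5a2 embryos were above the median low-Nr5a2 embryo of their experiment. Ncapd2, a condensin subunit, and Cenpe, a kinetochore motor, changed by 0.52 and 0.49 (adjusted p = 0.00249 and 0.00543). Aurka and Plk1, the mitotic kinases, changed by 0.50 and 0.37 (adjusted p = 0.00949 and 0.0398), and Cdc20, the activator of the anaphase-promoting complex, by 0.56 (adjusted p = 0.013). Without control embryos 2 and 6 of experiment 3, 4 were called higher, without control embryo 2 of experiment 2, 8, and with the mitochondrial share as a term 11 were called higher and 3 lower. Of 55 DNA replication genes, 3 were called higher and 0 lower (Cdc45 by 0.49, Ticrr by 0.36 and Orc3 by 0.29). Under either omission of embryos, or without experiment 1, 2 or 3, 0 of the 55 were called with edgeR.

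**Figure D4:**
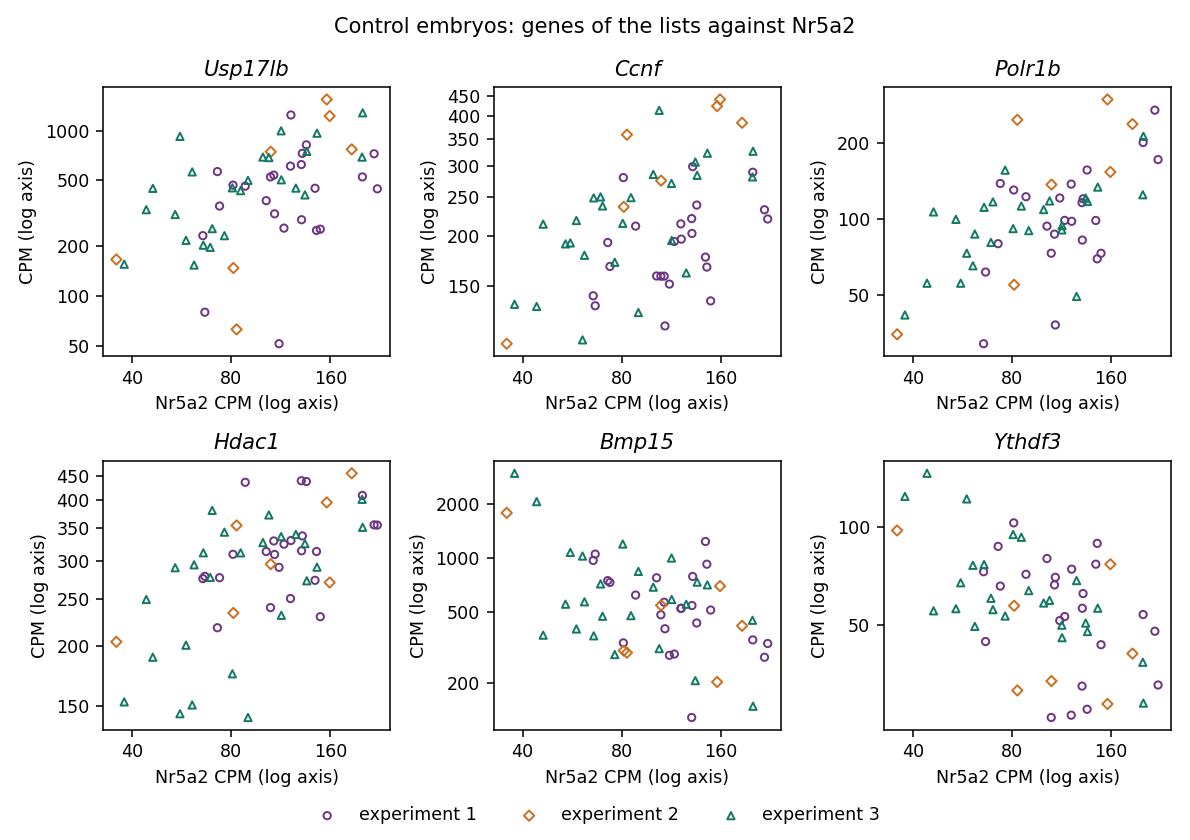
CPM of 6 genes against Nr5a2 CPM in the 56 control embryos (both axes log), by experiment. Levels of Usp17lb, Ccnf, Polr1b and Hdac1 are higher in embryos with more Nr5a2, and levels of Bmp15 and Ythdf3 lower, with wide scatter at any level of Nr5a2.

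Transcripts deposited in the oocyte gave calls in the other direction, 10 lower and 0 higher among 59 tested, with a median of -0.24 per doubling. Their average log2 level was 7.20 in high-Nr5a2, 7.06 in middle and 7.31 in low-Nr5a2 embryos. Summed over 60 listed genes, the median CPM was 35541, 30752 and 32296 in the same order. The middle embryos thus had the lowest values, with no steady fall across the groups. The calls depend on a few embryos: 4 of 59 were called lower without control embryo 2 of experiment 2, and 0 without experiment 3. Without control embryos 2 and 6 of experiment 3, which were picked after the values were seen for their level of Btg4, itself an oocyte transcript, 0 were called with edgeR and the median was -0.15. Bmp15 (chrX:6314107-6320721), an oocyte growth factor of the TGF-beta family, ran from 148 to 1233 CPM in high-Nr5a2 embryos (median 530) and from 302 to 2968 CPM in low-Nr5a2 embryos (median 736). It was at -0.75 per doubling (SE 0.16, edgeR adjusted p = 0.00168), and at -0.52 without embryos 2 and 6 of experiment 3 (adjusted p = 0.0854). Zar1, which binds maternal RNA, was at -0.70 (adjusted p = 0.0129), Nlrp4a at -0.55 (adjusted p = 0.00605) and Kit, the stem cell factor receptor, at -0.30 (adjusted p = 0.028). Among 30 maternal RNA decay factors 3 were called lower and 0 higher. They were Btg4, the adaptor that brings maternal RNA to deadenylation (-0.67, adjusted p = 0.0166), Ythdf3, a reader of methylated adenosine (-0.52, adjusted p = 0.0024), and Lsm1, a decapping activator (-0.57, adjusted p = 0.00692). Without the same 2 embryos 1 decay factor was called, Ythdf3 (-0.43, adjusted p = 0.0424), and Btg4 was at -0.40 (adjusted p = 0.33).

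Of genes that textbooks list as direct Nr5a2 targets, many of which belong to liver, gonad or pancreas, 15 of 26 were tested. Of these 15, 2 were called higher per doubling and 0 lower, where 3.4% of all genes were called higher. Ccne1 (chr7:38097984-38107534), the G1 cyclin, ran from 214 to 690 CPM in high-Nr5a2 embryos (median 380) and from 182 to 393 CPM in low-Nr5a2 embryos (median 286), and changed by 0.44 (SE 0.08, edgeR adjusted p = 0.000503). Between the divided groups Ccne1 had a log2 fold change of 0.56 and an adjusted p of 0.0829. Cpt1a, which carries fatty acids into mitochondria, changed by 0.28 (adjusted p = 0.0379). Without control embryos 2 and 6 of experiment 3, or without control embryo 2 of experiment 2, 1 of 15 was called, Ccne1. Cpt1a then had an edgeR adjusted p of 0.173 and 0.101. Without experiment 3, 0 of 14 targets were called with edgeR. Of 22 Nr5a2 coregulators and of 29 pluripotency and lineage factors, 0 were called in either direction with edgeR, and 7 and 4 had an unadjusted p under 0.05, where 22.8% of all genes did in this fit. Of 28 other nuclear receptors tested, 2 were called higher and 1 lower per doubling, and 19 were below 0 (median -0.21). Rxra was higher (1.06 per doubling, edgeR adjusted p = 0.0198) and Nr1d1 lower (-0.78, adjusted p = 0.0307) beside Nr2c2 (0.75, SE 0.10, adjusted p = 2.27e-05). Without control embryos 2 and 6 of experiment 3, 1 was called higher, Nr2c2, and 0 lower. Without control embryo 2 of experiment 2 these counts were 2 and 0.

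The other groups described gave at most 4 calls in a direction. The 13 mitochondrial genome transcripts were all below 0 between the divided groups, with a median of -0.17, and 0 were called, with 0 at an unadjusted p under 0.05. Of 74 nuclear genes of oxidative phosphorylation, 1 was called higher (Atp5b) and 1 lower (Ndufs4). Stress genes gave 2 higher of 24 in the integrated stress response (Sesn2 by 0.46 and Ppp1r15a by 0.48) and 1 of 26 heat shock chaperones (Hsp90aa1 by 0.31). Among 34 p53 and damage response genes 1 was higher (Tigar by 0.54) and 4 were lower (Perp, Chek1, Ccng2 and Trp53inp1), and 0 were called in either direction without control embryo 2 of experiment 2 or without control embryos 2 and 6 of experiment 3. Of 39 spliceosome genes 3 were higher, among them Sf3b1, which recognises branch points (0.55, adjusted p = 0.000204), and 1 was higher under either of these omissions. With all control embryos, the share of lower calls among p53 and damage response genes lay above the 3.62% of all genes. Shares of higher calls lay above 3.4% in the integrated stress response, the spliceosome, the heat shock chaperones and lipid and steroid metabolism. Each of these shares rests on at most 4 calls. Without control embryos 2 and 6 of experiment 3, 1 of the 24 integrated stress response genes was called higher. Of 50 lipid and steroid metabolism genes 4 were called higher and 1 lower per doubling, and 1 and 0 under either omission.

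**Figure D5:**
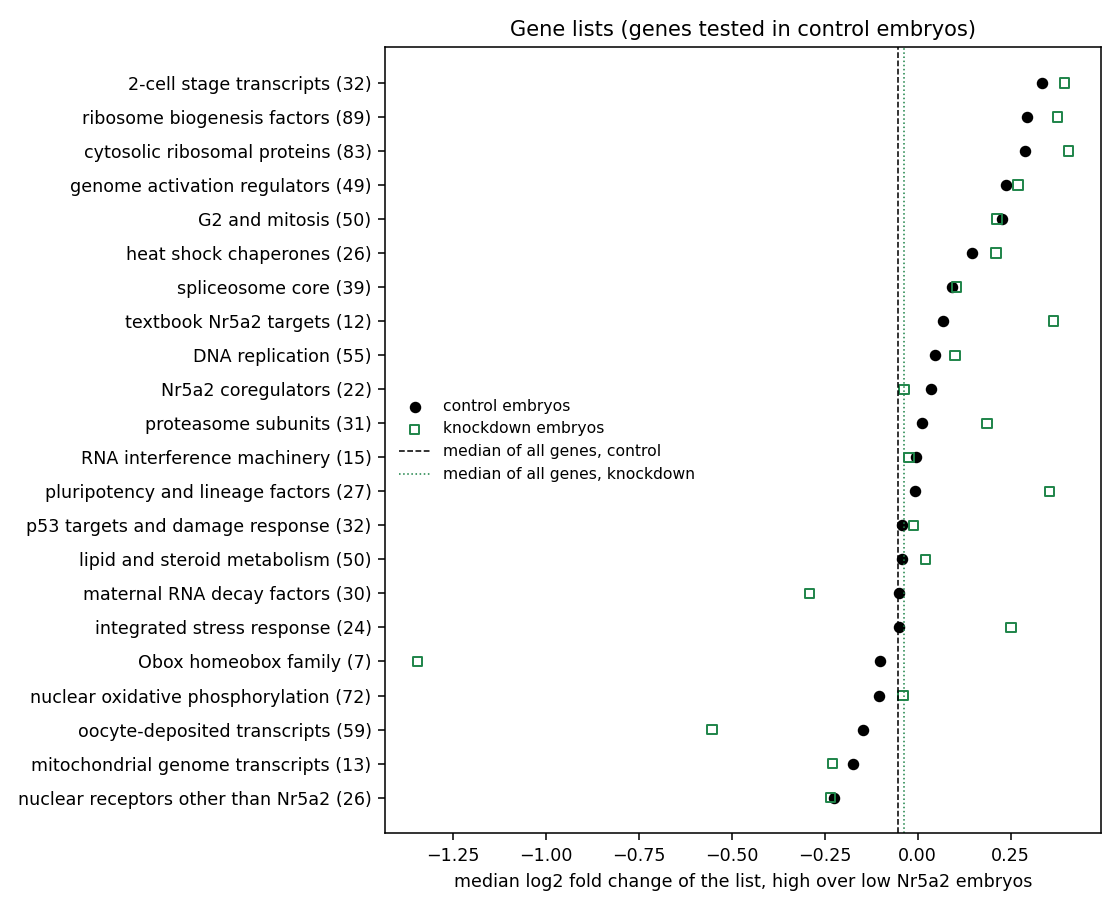
Median log2 fold change of the 22 gene lists with at least 7 genes tested, without the lists chosen by the knockdown itself, high-Nr5a2 over low-Nr5a2 embryos, in control embryos (filled) and in knockdown embryos (open), with the number of genes tested in controls in parentheses and dashed or dotted lines at the medians of all genes. Among the lists plotted, the 2-cell stage transcripts lie at 0.34 in controls and both ribosome lists at 0.29 each.

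The knockdown embryos share no library with the controls and were not used to choose the members. Their own Nr5a2 was lower, from 10.3 to 105 CPM, and the same division gave 17 high-Nr5a2 and 17 low-Nr5a2 embryos. With edgeR 0 of 12888 genes were called between these groups (0%), with 1956 at an unadjusted p under 0.05 (15.2%), so no single gene passed there. Of the 21 genes higher in high-Nr5a2 control embryos, 21 had a log2 fold change above 0 in knockdown embryos (median 0.50), where 47% of all genes did, and both lower genes were below 0. Nr2c2 differed by 0.81 (SE 0.35, adjusted p = 0.269), Spic by 0.97 (SE 0.23, adjusted p = 0.0634) and Pcsk7 by 0.24 (SE 0.30, adjusted p = 0.707).

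With Nr5a2 as a continuous term over the 55 knockdown embryos, 2142 of 14164 genes were called with edgeR (15.1%), 679 higher (4.79%) and 1463 lower (10.3%). Genes called per doubling in controls were followed if also tested between the divided control groups and in knockdown embryos. Of 485 such higher genes, 479 were above 0 in knockdown embryos, where 51.4% of all genes were. Of 502 such lower genes, 474 were below 0. In all, 535 of these 987 genes were called in the same direction in knockdown embryos and 0 in the opposite direction. Nr2c2 changed by 0.78 (adjusted p = 0.0054) and Spic by 0.71 (adjusted p = 4.8e-05) per doubling in knockdown embryos, and Bmp15 was at -1.20 (adjusted p = 2.92e-06). Oocyte-deposited transcripts gave 35 of 59 called lower there and 0 higher. In both arms Nr5a2 was measured in the same library as the other genes, so a property of the embryo or library that moves with Nr5a2 and an effect of Nr5a2 cannot be told apart. A test of the difference between the arms called 0 of 14859 genes with edgeR (0%), with 528 at an unadjusted p under 0.05 (3.55%).

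The division of the controls and the knockdown itself can be set side by side, but both comparisons use the control embryos, so no share or overlap is given. The knockdown called 150 of 13449 genes against control with edgeR (1.12%). Iqub, which encodes a protein of cilia and flagella, differed by -0.66 in knockdown against control embryos (adjusted p = 0.0401) and by 0.92 between high-Nr5a2 and low-Nr5a2 controls (adjusted p = 0.0987). Xylb, xylulokinase, gave -0.61 (adjusted p = 0.00666) and 0.65 (adjusted p = 0.195), and Rffl, a ubiquitin ligase, gave -0.79 (adjusted p = 0.0332) and 0.11 (adjusted p = 0.929). Lrtm1, higher with the knockdown, gave 1.40 (adjusted p = 7.99e-11) and 0.15 (adjusted p = 0.826). Nr2c2 differed by -0.19 with the knockdown (adjusted p = 0.825), Spic by -0.15 (adjusted p = 0.858) and Pabpn1 by -0.14 (adjusted p = 0.847).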

How the data were processed

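Single 2-cell embryos were sequenced as polyadenylated RNA by a SmartSeq2 protocol without molecular identifiers or stated strand marking, so reads of overlapping or antisense genes cannot be told apart. The authors deposited estimated counts per transcript (kallisto 0.46.1, with Trim Galore 0.6.2 before it, per the submitters' processing notes; annotation release not given in the sources used here). A batch-adjusted version of that table, deposited by the authors without a stated method, was treated as a score and used for 1 alternative. Transcripts were joined to genes through the identifiers in the authors' deposited comparison table (117282 of 119358 rows) and GENCODE M21 (379), and the rest, a median of 0.566% of counts, were left out, as were 2 marker rows. Counts were summed per gene and rounded.

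No libraries were identical, and the highest correlation between 2 embryos was 0.944. Genes were kept by edgeR's expression filter and fitted with edgeR 4.0.16 (quasi-likelihood, TMM, experiment as a factor) in R 4.3.3, with Benjamini-Hochberg adjustment over all genes tested and a threshold of 0.05. The continuous fit had log2 Nr5a2 CPM in place of the groups. Alternatives used DESeq2 1.42.0 and limma 3.58.1. Library measures were compared by permutation within experiments (100000 draws). Genes named were, of called genes with a mean log2 CPM of at least 4, a standard symbol and the same sign in experiments 1 and 3, the 12 with the largest fold change and the 3 of smallest p in each direction, filled to 8 by p where fewer were called, with the leading members of each list and the knockdown lists. The members, the rule and the gene lists were chosen with earlier results of these data known. The high-against-low fit was tested on simulated data with known changes. It called 10.2% of genes changed 1.5-fold, 59.2% changed 2-fold, 85.1% changed 3-fold and 95.9% changed 4-fold. Of unchanged genes it called 0.0469%. Many changes of 1.5-fold to 2-fold would therefore be missed, so a gene not called may still differ. Whether the shares called in the simulated data also hold for the embryos was not tested. Estimated counts are not independent molecules, but the fit estimates the variation among embryos, and its SEs reflect that variation. Each SE is the absolute log2 fold change over the square root of the quasi-likelihood F statistic. No intervals are given.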

Additional observations from a re-analysis of the deposited data

Results flagged for a closer look

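Of 118 groups of 4 to 10 embryos checked for 1 value far from the rest, 7 held one, and chance alone flags about 1 in 20 groups. Among high-Nr5a2 embryos of experiment 1, Rimklb stood at 223 CPM in embryo 14, where the next embryo had 392.4. In embryo 3 of that group Slc7a6os was at 58.5 CPM with the next at 110, and Clcn3 was at 8.53 CPM with the next at 19.2. Among low-Nr5a2 embryos of experiment 1, Klhl11 was lowest in embryo 1, at 83.8 CPM with the next at 137. Among high-Nr5a2 embryos of experiment 3, embryo 10 had a library total of 7.35 M against 5.46 M for the next and 15568 genes with at least 5 counts against 14759. Among low-Nr5a2 embryos of experiment 3, Gm18856 was lowest in embryo 6, at 33.9 CPM with the next at 79.7. Gene levels were judged on a log2 scale after adding 1 CPM.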

How the results depend on the processing

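The count of 23 genes between high-Nr5a2 and low-Nr5a2 control embryos was 19 to 22 with RLE size factors, without the low-count filter, with the library total or marker RNA as a term and in the batch-adjusted values. It was 8 with library totals, 133 with DESeq2, 37 with limma-voom, 107 for the upper against the lower 0.5 of embryos, 4 for the outer 0.25 on each side, 42 when ranked by TMM-scaled Nr5a2 and 41 when ranked by the most abundant Nr5a2 transcript. It was 1005 with Nr5a2 as a continuous term, 10 with the mitochondrial share as a term, 4, 4 and 0 without experiments 1, 2 and 3, and 6 without the lowest-total embryos. Leaving out single embryos of experiment 2 gave 9 to 21. Alternatives chosen after seeing the data gave 10 (genes detected as a term) and 5 (without control embryos 2 and 6 of experiment 3). Similar counts did not always hold the same genes. Of the 23 genes, 15 were called without the low-count filter and 16 in the batch-adjusted values. For the upper against the lower 0.5 of embryos, 16 of the 23 were among the 107. Over these settings the called genes kept their direction in 549 of 549 checks and passed the test in 314. The settings reuse the embryos in which these genes were called, so a kept direction was likely beforehand and is not independent support. The continuous fit of 1005 genes, with alternatives all chosen after seeing the data, gave 983 with library totals, 1104 with the mitochondrial share and 836 with genes detected as a term, 573, 260 and 95 without experiments 1, 2 and 3, 251 without the 2 embryos of experiment 3 and 364 without embryo 2 of experiment 2. In knockdown embryos the division gave 0 calls with TMM and with library totals (1628 at an unadjusted p under 0.05) and 2142 with a continuous term. The difference in B1 repeats was -20.0 CPM without experiment 3 and then passed the test (permutation p adjusted 0.0203). For knockdown against control, a replicate block on the embryo number gave 22 calls in place of 150; the numbers only name embryos within an experiment, and the division itself has no pairs. The cause of these changes was not tested.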
